A study of Rattus norvegicus with 9 samples.

Results

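*Thbs1*, *Thbs2*, *Thbs3*, *Thbs4*, *Tnc*, *Postn*, *Sparc*, *Ccn1*, *Ccn2* and *Fn1* were taken by their symbols as the thrombospondins and other matricellular genes of this study, 10 of the 32883 genes in the deposited tables. Each symbol matched 1 row, and all 10 passed the filter on low counts that left 13273 genes to test. *Thbs4*, with 5, 12 and 4 counts in the skin libraries, passed it through the nerve libraries, where it was high. RNA was sequenced from cultured fibroblasts of wild-type Lewis rats, with 3 libraries for each of 3 types. Fb-Epn came from the epineurium, the connective tissue sheath of the sciatic nerve, Fb-Par from the parenchyma inside that sheath, and Fb-Skn from abdominal skin. The nerves were those of 2 male rats and the skin was that of 1 other male rat, all 10 weeks of age, and the cells had been passaged 1 time in medium with fetal bovine serum. With 2 rats or 1 rat behind 3 libraries, the libraries of a type were not 3 separate animals, so each SD and p-value below measures only the spread between these samples. Rat, body site and tissue differ together between the nerve types and Fb-Skn and cannot be told apart.

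Total counts ranged from 10084584 to 12310506 per library, and libraries of the same type varied by 8.25% (the common coefficient of variation of the fit). Levels are given as TPM (the count per length of a gene, scaled to a fixed sum), and differences as edgeR log2 fold changes, called at a Benjamini-Hochberg adjusted p under 0.01. Each SE of a fold change was worked back from its test, as the size of the change over the square root of the F statistic. All 9 fibroblast markers in the tables had counts in every library, with a summed level of 39840 to 39993 TPM in Fb-Epn, 32022 to 32964 TPM in Fb-Par and 41113 to 42024 TPM in Fb-Skn. Markers of other cell types were also present. The 9 Schwann cell markers summed to 194 to 204 TPM in Fb-Epn, 270 to 277 TPM in Fb-Par and 10.5 to 13.2 TPM in Fb-Skn, where *Sox10*, *Erbb3*, *Cdh19* and *Gfap* were among those at 0 in every library. The 7 macrophage and leukocyte markers, led by *Lyz2* and *Cd68*, summed to 1124 to 1183 TPM in Fb-Epn, 212 to 225 TPM in Fb-Par and 69.0 to 72.9 TPM in Fb-Skn. Pericyte and smooth muscle markers (7 genes) summed to 100.3 to 105 TPM in Fb-Epn, 484 to 509 TPM in Fb-Par and 259 to 271 TPM in Fb-Skn, and *Rgs5* and *Kcnj8* were at 0 in every Fb-Skn library. Perineurial markers (6 genes, mostly *Slc2a1*) summed to 156 to 163 TPM, 41.5 to 47.2 TPM and 78.1 to 87.9 TPM in the same order, while the 8 endothelial and 5 keratinocyte markers summed to at most 37.8 TPM and 4.36 TPM. In bulk RNA, fewer cells of a type and less RNA per cell cannot be told apart.

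Matricellular proteins are secreted into the extracellular matrix and act there mainly on cells rather than as load-bearing fibres. They bind integrins, syndecans, growth factors and proteases, and so tune adhesion, migration and growth factor activity. Thrombospondins are large calcium-binding glycoproteins, which assemble as trimers (*Thbs1*, *Thbs2*) or pentamers (*Thbs3*, *Thbs4*). Tenascin-C (*Tnc*), periostin (*Postn*), SPARC, and the CCN proteins CYR61 (*Ccn1*) and CTGF (*Ccn2*) are known to rise in wounds and in injured tissue. Fibronectin (*Fn1*) is the structural partner to which several of them bind. In peripheral nerve, fibroblasts produce much of this matrix, and tenascin-C, thrombospondins and fibronectin are known to act on growing axons. In culture, *Ccn1*, *Ccn2* and *Thbs1* are well known to respond to serum and to the co-activators YAP and TAZ, which reach DNA through TEAD factors.

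Promoters are shown first for *Ccn2*, *Ccn1*, *Thbs1* and *Thbs4*, since the first 3 of these genes are known targets of that pathway and *Thbs4* had the largest difference between types. Of the 10 genes, 8 had an entry in the RefSeq promoter table (GRCr8), and *Thbs2* and *Fn1* were not analysed here. These positions are of GRCr8 and are not to be mixed with the rn6 gene positions given with the levels. Each run is the 250 bases before the transcript start, 5′ to 3′ on the strand of the gene, and capitals mark the TEAD hexamer GGAATG or its reverse complement CATTCC. The windows are chr1:22624615-22624864 (minus strand) for *Ccn2*, chr2:237225690-237225939 (minus strand) for *Ccn1*, chr3:125510000-125510249 (plus strand) for *Thbs1* and chr2:25760346-25760595 (minus strand) for *Thbs4*.
Ccn2: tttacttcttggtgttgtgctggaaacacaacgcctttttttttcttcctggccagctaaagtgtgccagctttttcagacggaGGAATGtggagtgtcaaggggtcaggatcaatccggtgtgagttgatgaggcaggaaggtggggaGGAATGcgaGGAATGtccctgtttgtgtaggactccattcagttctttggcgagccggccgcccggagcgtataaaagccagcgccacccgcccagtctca
Ccn1: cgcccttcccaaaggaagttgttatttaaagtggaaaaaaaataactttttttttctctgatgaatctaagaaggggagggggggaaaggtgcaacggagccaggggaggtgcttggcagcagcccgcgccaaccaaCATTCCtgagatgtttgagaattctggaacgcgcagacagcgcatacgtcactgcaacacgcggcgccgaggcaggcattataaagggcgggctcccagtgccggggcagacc
Thbs1: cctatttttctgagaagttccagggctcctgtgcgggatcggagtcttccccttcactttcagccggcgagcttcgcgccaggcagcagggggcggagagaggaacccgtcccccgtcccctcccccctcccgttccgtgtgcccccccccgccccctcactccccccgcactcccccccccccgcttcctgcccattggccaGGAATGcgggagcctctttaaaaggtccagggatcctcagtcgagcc
Thbs4: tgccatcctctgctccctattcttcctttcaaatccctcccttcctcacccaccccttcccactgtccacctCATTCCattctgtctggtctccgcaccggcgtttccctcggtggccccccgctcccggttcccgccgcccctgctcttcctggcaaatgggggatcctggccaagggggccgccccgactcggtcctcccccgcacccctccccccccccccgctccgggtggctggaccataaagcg

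In *Ccn2* the hexamer was present 3 times, with first bases at positions -166, -101 and -92 from the start. *Ccn1*, *Thbs1*, *Thbs4* and *Sparc* held 1 copy each, at -113, -47, -178 and -33. *Thbs3*, *Tnc* and *Postn* held none, so 5 of the 8 windows had the hexamer, which was found on either strand in 11.8% of 27457 rat promoters of the same length. Since *Ccn2*, *Ccn1* and *Thbs1* were already known as targets of the pathway, these shares do not test the set. The SMAD box CAGAC was found on either strand in *Ccn1* (2 copies), *Sparc* (3 copies), *Ccn2*, *Thbs4*, *Tnc* and *Postn* (1 copy each), and in 42.8% of all promoters. Neither the AP-1 heptamer TGANTCA (6.36% of all promoters) nor the CArG box (1.5%) was in any of the 8 windows. No 2 of these matches overlapped. A match describes the letters of the window and is not a measured binding site.

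*Thbs1* encodes thrombospondin-1, an activator of latent TGF-beta, an inhibitor of angiogenesis and a ligand of CD36 and CD47. It was among the most abundant transcripts of every type, at rank 4 of all genes in Fb-Epn, 9 in Fb-Par, and 12 for Fb-Skn by mean TPM. *Thbs1* (ENSRNOG00000045829, rn6 chromosome 3, 109862117 to 109873466, plus strand) was at 12622, 12398 and 12548 TPM in the 3 Fb-Epn libraries. The Fb-Par libraries held 6415, 6527 and 6864 TPM, and the Fb-Skn libraries 5474, 6281 and 6126 TPM. Every Fb-Epn library was therefore above every library of the other types, which sat close to each other. *Thbs1* was higher in Fb-Epn than Fb-Skn by a log2 fold change of 0.93 ± 0.03 (SE, adjusted p = 8.4e-12) and higher than in Fb-Par by the same 0.93 ± 0.03 (adjusted p = 8.9e-12). Between Fb-Par and Fb-Skn the estimate was -0.0018 ± 0.03 (adjusted p = 0.97, 95% interval -0.07 to 0.06), the 1 contrast of the 10 genes that was not called. The TPM ranges of these types did not overlap (6602 ± 234 against 5960 ± 428, SD, n = 3). The TMM factors were 0.955 to 0.961 in Fb-Skn and 1.02 to 1.03 in the nerve types, and the sign of this estimate turned with the scaling. The macrophage marker sum was also highest in Fb-Epn, and its part in the *Thbs1* difference was not tested.

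*Thbs2*, whose product thrombospondin-2 inhibits angiogenesis and organises collagen fibrils, had the order Fb-Skn, Fb-Epn, Fb-Par. *Thbs2* (ENSRNOG00000010529, chromosome 1, 56653938 to 56683731, minus strand) was at 1898, 2008 and 1998 TPM in Fb-Skn, at 1077, 1107 and 1094 TPM in Fb-Epn, and at 291, 300.3 and 298 TPM in Fb-Par. The 3 types were fully separated, and the ratio of the Fb-Skn mean to the Fb-Par mean was 6.64 in TPM. The log2 fold change was -2.88 ± 0.02 for Fb-Par minus Fb-Skn (adjusted p = 1.3e-18), 1.89 ± 0.02 for Fb-Epn minus Fb-Par (adjusted p = 8.8e-17) and -0.99 ± 0.02 for Fb-Epn minus Fb-Skn (adjusted p = 5.6e-14). Both trimeric thrombospondins were higher in Fb-Epn than Fb-Par, and they differed in opposite directions between Fb-Epn and Fb-Skn.

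*Thbs4* encodes the pentameric thrombospondin-4, known from tendon, muscle and nerve, and it showed the widest span of the 10 genes. *Thbs4* (ENSRNOG00000012471, chromosome 2, 22343727 to 22385855, minus strand) was at 150, 156 and 155 TPM in Fb-Par and at 25.5, 28.3 and 26.3 TPM in Fb-Epn. In Fb-Skn it was near the limit of detection, at 0.285, 0.783 and 0.259 TPM, which are 5, 12 and 4 counts. *Thbs4* thus entered the tests against Fb-Skn through its counts in the nerve types. No library of 1 type reached the range of another. Summed over libraries there were 7526 counts in Fb-Par, 1362 in Fb-Epn and 21 in Fb-Skn, so that per total count *Thbs4* was 340 times as high in Fb-Par as in Fb-Skn (95% counting interval 222 to 549) and 59.5 times as high in Fb-Epn as in Fb-Skn (38.8 to 96.4). These intervals cover counting error only. The fitted log2 fold change was 8.29 ± 0.13 for Fb-Par minus Fb-Skn (adjusted p = 7.7e-16), 5.78 ± 0.16 for Fb-Epn minus Fb-Skn (adjusted p = 4.3e-13) and -2.51 ± 0.07 for Fb-Epn minus Fb-Par (adjusted p = 6.6e-13). The Fb-Skn library with 12 counts moved the contrasts against Fb-Skn, which became 8.95 and 6.44 without it. Both values lie outside the 95% intervals built from the SEs (8.03 to 8.55 and 5.46 to 6.10). These SEs therefore understate the error of *Thbs4* against Fb-Skn. The summed Schwann cell markers had the same order of types as *Thbs4*, as did 8 of the 9 markers one by one, but *S100b*, the most abundant of them, was at 129.6 ± 8.21 TPM in Fb-Epn and 119 ± 4.83 TPM in Fb-Par. Their part in the *Thbs4* difference was not tested.

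*Thbs3*, which encodes the other pentamer of the set, was low and varied little between types. *Thbs3* (ENSRNOG00000059903, chromosome 2, 188528979 to 188540736, plus strand) was at 23.9, 23.4 and 24.1 TPM in Fb-Epn, at 29.3, 29.8 and 28.2 TPM in Fb-Par and at 27.9, 33.5 and 34.6 TPM in Fb-Skn. Fb-Par and Fb-Skn overlapped in TPM, and Fb-Epn lay below both. It was called in all 3 contrasts, with log2 fold changes of -0.57 ± 0.07 (Fb-Epn minus Fb-Skn, adjusted p = 1.2e-05), -0.28 ± 0.07 (Fb-Epn minus Fb-Par, adjusted p = 0.0053) and -0.29 ± 0.07 (Fb-Par minus Fb-Skn, adjusted p = 0.0036). The last pair of calls was lost under 8 and 9 of 20 alternatives, with adjusted p up to 0.022 and 0.20. *Comp*, the fifth thrombospondin, was close to absent in all types (0.847 ± 0.434, 2.20 ± 0.140 and 0.740 ± 0.204 TPM in the order Fb-Epn, Fb-Par, Fb-Skn).

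**Figure D1:**
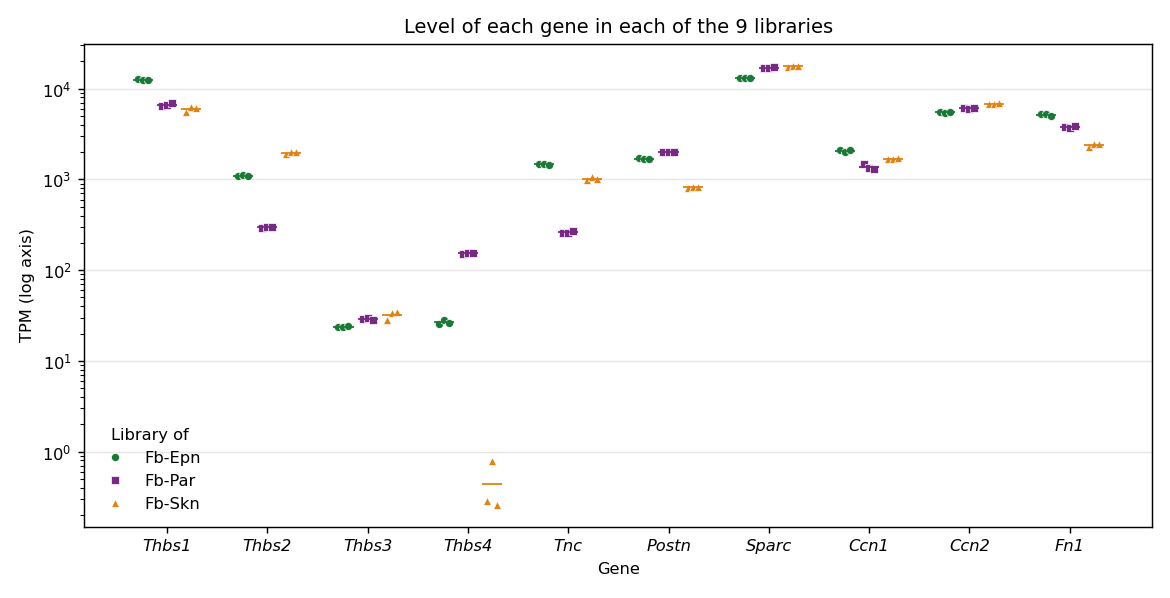
TPM (log axis) of the 10 genes in each of the 9 libraries, with 3 points per type (circles Fb-Epn, squares Fb-Par, triangles Fb-Skn) and a line at the mean. *Thbs4* spans from 0.259 TPM in Fb-Skn to 156 TPM in Fb-Par, while *Sparc* stays between 13096 and 17808 TPM.

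As a family the 4 thrombospondins summed to 13666 ± 98.8 TPM in Fb-Epn, 7081 ± 238 TPM in Fb-Par and 7961 ± 493 TPM in Fb-Skn (SD, n = 3). *Thbs1* made up most of this sum in every library, but the remainder differed by type. Its share was 91.6% ± 0.176 in Fb-Epn, 93.2% ± 0.192 in Fb-Par, and 74.8% ± 0.774 for Fb-Skn. *Thbs2* took 8.0% ± 0.165, 4.19% ± 0.113 and 24.8% ± 0.794 of the sum in the same order. *Thbs4* reached 2.17% ± 0.0564 in Fb-Par, against 0.196% ± 0.0120 in Fb-Epn and 0.00548% ± 0.00342 in Fb-Skn. The ratio of *Thbs1* to *Thbs2* within a library, which does not depend on how libraries are scaled to each other, was 11.5 ± 0.258 in Fb-Epn, 22.3 ± 0.655 in Fb-Par, and 3.03 ± 0.127 for Fb-Skn, with no overlap between types.

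**Figure D2:**
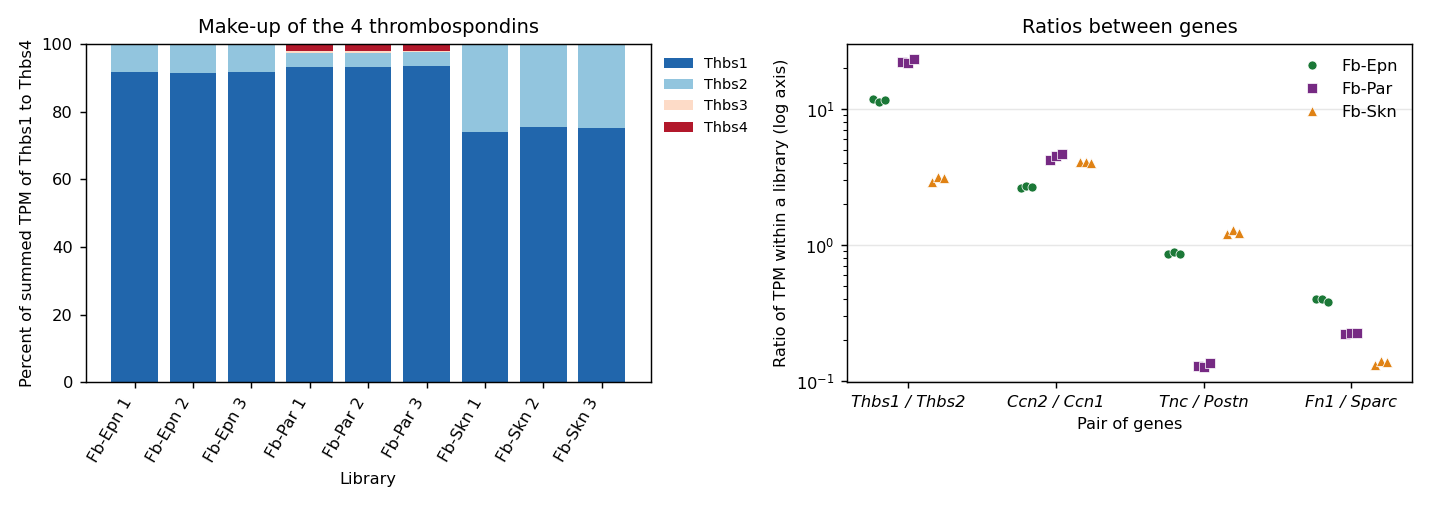
Left, percent of the summed TPM of *Thbs1* to *Thbs4* taken by each gene in the 9 libraries, and right, the ratio of TPM between 4 pairs of genes within each library (log axis, 1 point per library). *Thbs2* takes 24.1% to 25.6% in the Fb-Skn bars, *Thbs4* is visible only in the Fb-Par bars, and the *Tnc* to *Postn* ratio is lowest in Fb-Par at 0.127 to 0.136.

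*Tnc* encodes tenascin-C, a hexameric glycoprotein of developing and injured tissue that can repel or guide axons. It was high in Fb-Epn and Fb-Skn and low in Fb-Par. *Tnc* (ENSRNOG00000058645, chromosome 5, 79789671 to 79874671, minus strand) was at 1462, 1491 and 1454 TPM in Fb-Epn, at 977, 1050 and 1015 TPM in Fb-Skn and at 256, 254 and 272 TPM in Fb-Par. The types did not overlap, and the Fb-Epn mean was 5.64 times the Fb-Par mean in TPM. The log2 fold change was 2.51 ± 0.03 for Fb-Epn minus Fb-Par (adjusted p = 6.0e-17), -2.11 ± 0.03 for Fb-Par minus Fb-Skn (adjusted p = 1.5e-16) and 0.40 ± 0.03 for Fb-Epn minus Fb-Skn (adjusted p = 1.7e-08). The perineurial marker sum had the same order of types as *Tnc* and *Ccn1*, through *Slc2a1* and *Itgb4* and not the other 4 markers. Those 4 were near 0 in all types, at most 2.74 TPM on average (*Krt23* in Fb-Skn), so the sum was mostly *Slc2a1*. The part of this sum in either difference was not tested.

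*Postn* encodes periostin, an integrin ligand that binds collagen and tenascin-C. Its order was the reverse of that of *Tnc* between the nerve types. *Postn* (ENSRNOG00000012660, chromosome 2, 143656793 to 143688087, plus strand) was at 1980, 2003 and 1999 TPM in Fb-Par, at 1706, 1684 and 1692 TPM in Fb-Epn and at 811, 824 and 829 TPM in Fb-Skn. Both nerve types lay above Fb-Skn, and the gap between the nerve types was small but free of overlap. The log2 fold change was 1.13 ± 0.02 for Fb-Par minus Fb-Skn (adjusted p = 3.2e-15), 0.90 ± 0.02 for Fb-Epn minus Fb-Skn (adjusted p = 4.8e-14) and -0.22 ± 0.02 for Fb-Epn minus Fb-Par (adjusted p = 3.2e-07). The Schwann cell marker sum moved in the same order as *Postn*, with the exception of *S100b* given above, and its part in the difference was not tested. Within a library the ratio of *Tnc* to *Postn* was 0.867 ± 0.0156 in Fb-Epn, 0.131 ± 0.00482 in Fb-Par, and 1.23 ± 0.0364 for Fb-Skn.

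*Sparc*, whose product osteonectin binds collagen and calcium and counters cell spreading, was the most abundant of the 10 genes in every type, at rank 2 of all genes in Fb-Epn, 1 in Fb-Par, and 2 for Fb-Skn. *Sparc* (ENSRNOG00000012840, chromosome 10, 40742400 to 40764185, minus strand) was at 13096, 13196 and 13111 TPM in Fb-Epn, at 17102, 16722 and 17291 TPM in Fb-Par and at 17394, 17600 and 17808 TPM in Fb-Skn. Fb-Epn stood below the other types, which differed from each other by little. The log2 fold change was -0.56 ± 0.02 for Fb-Epn minus Fb-Skn (adjusted p = 8.5e-13), -0.37 ± 0.02 for Fb-Epn minus Fb-Par (adjusted p = 1.4e-10) and -0.20 ± 0.02 for Fb-Par minus Fb-Skn (adjusted p = 1.2e-07). The last of these was -0.05 (adjusted p = 0.16) in limma's test of log2(TPM + 1), and the call was also lost in limma on log2(TPM + 0.1) and log2(FPKM + 1), while it was kept in edgeR with RLE, upper-quartile or library size scaling (-0.18, -0.21 and -0.10) and in DESeq2 (-0.18).

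*Ccn1* and *Ccn2* encode the paralogues CYR61 and CTGF, which bind integrins and heparan sulphate and are often measured together as readouts of YAP and TAZ. Their orders differed here. *Ccn1* (ENSRNOG00000014350, chromosome 2, 251529354 to 251532312, minus strand) was at 2090, 2023 and 2104 TPM in Fb-Epn, at 1460, 1352 and 1318 TPM in Fb-Par and at 1665, 1668 and 1738 TPM in Fb-Skn. *Ccn2* (ENSRNOG00000015036, chromosome 1, 21851660 to 21854773, minus strand) was at 5497, 5425 and 5553 TPM in Fb-Epn, at 6111, 6034 and 6145 TPM in Fb-Par and at 6735, 6795 and 6879 TPM in Fb-Skn. *Ccn1* was thus highest and *Ccn2* lowest in Fb-Epn, with no overlap between types for either gene. The log2 fold changes of *Ccn1* were 0.15 ± 0.03 (Fb-Epn minus Fb-Skn, adjusted p = 0.0014), 0.60 ± 0.03 (Fb-Epn minus Fb-Par, adjusted p = 1.6e-09) and -0.45 ± 0.03 (Fb-Par minus Fb-Skn, adjusted p = 3.9e-08). Those of *Ccn2* were -0.45 ± 0.02 (adjusted p = 2.1e-11), -0.14 ± 0.02 (adjusted p = 9.8e-06) and -0.31 ± 0.02 (adjusted p = 1.4e-09) in the same contrasts. Within a library the ratio of *Ccn2* to *Ccn1* was 2.65 ± 0.0270 in Fb-Epn, 4.44 ± 0.239 in Fb-Par, and 4.03 ± 0.0609 for Fb-Skn. The *Ccn2* window printed above held 3 hexamers and the *Ccn1* window 1, and a link between hexamer number and these orders was not tested.

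*Fn1*, which encodes fibronectin, the integrin ligand on which cells assemble the early matrix, fell in the order Fb-Epn, Fb-Par, Fb-Skn. *Fn1* (ENSRNOG00000014288, chromosome 9, 78900103 to 78969078, minus strand) was at 5253, 5269 and 4998 TPM in Fb-Epn, at 3796, 3732 and 3894 TPM in Fb-Par and at 2256, 2478 and 2428 TPM in Fb-Skn. Each step was larger than the spread between libraries. The log2 fold change was 0.98 ± 0.03 for Fb-Epn minus Fb-Skn (adjusted p = 3.5e-13), 0.45 ± 0.03 for Fb-Epn minus Fb-Par (adjusted p = 2.5e-09) and 0.52 ± 0.03 for Fb-Par minus Fb-Skn (adjusted p = 3.8e-10). The macrophage and leukocyte marker sum had the same order as *Fn1*, as did 6 of its 7 genes (all but *Cd163*), and its part in the difference was not tested. The ratio of *Fn1* to *Sparc* was 0.394 ± 0.0110 in Fb-Epn, 0.223 ± 0.00164 in Fb-Par, and 0.136 ± 0.00557 for Fb-Skn. *Fn1* shares 265 bases with AABR07068042.1 on the opposite strand, a gene with 1966 to 7057 counts per library, and whether reads were counted by strand is not given in the sources used here.

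Together the 10 genes took 4.27% ± 0.0133 of all TPM in Fb-Epn, 3.77% ± 0.0581 in Fb-Par, and 3.83% ± 0.0902 for Fb-Skn, and 7.29% ± 0.0401, 5.58% ± 0.0746 and 5.81% ± 0.0654 of all counts (SD, n = 3). The comparisons ask how the sheath fibroblasts differ from skin fibroblasts, how the 2 nerve types differ, and how the parenchymal fibroblasts differ from those of skin. Between Fb-Epn and Fb-Skn, all 10 genes were called, against 43.9% of all genes tested. *Thbs1*, *Thbs4*, *Tnc*, *Postn*, *Ccn1* and *Fn1* were higher in Fb-Epn (23% of all genes tested were called higher), and *Thbs2*, *Thbs3*, *Sparc* and *Ccn2* were lower (20.9%). The median log2 fold change was 0.27 over these genes and -0.0028 over all genes tested. Only *Thbs4* passed a log2 fold change of 2, and no other passed 1, where 8.44% and 16.5% of all genes tested did. That count depends on the scaling, since *Thbs1*, *Postn* and *Fn1* reached up to 1.07, 1.04 and 1.12 under the alternatives.

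Between Fb-Epn and Fb-Par all 10 genes were again called, against 38.8% of all genes tested. *Thbs1*, *Thbs2*, *Tnc*, *Ccn1* and *Fn1* were higher in Fb-Epn (20.2% of all genes tested were) and *Thbs3*, *Thbs4*, *Postn*, *Sparc* and *Ccn2* were lower (18.6%). *Tnc* and *Thbs4* passed a log2 fold change of 2 in opposite directions (6.48% of all genes tested passed it), and with *Thbs2* 3 genes passed 1 (14.5%). In the comparison of Fb-Par with Fb-Skn 9 of the 10 genes were called, against 45.6% of all genes tested. *Thbs4*, *Postn* and *Fn1* were higher in Fb-Par (23.2% of all genes tested were), *Thbs2*, *Thbs3*, *Tnc*, *Sparc*, *Ccn1* and *Ccn2* were lower (22.4%), and *Thbs1* was not called. *Thbs2*, *Thbs4* and *Tnc* passed a log2 fold change of 2 (8.54% of all genes tested) and *Postn* passed 1 (16.8%). The median size of the log2 fold change, without sign, was 0.73, 0.53 and 0.49 in the 3 comparisons in the order given, against 0.33, 0.28 and 0.34 over all genes tested. Counts this high give small errors, so a call here can rest on a small difference, as for *Ccn1* at 0.15 between Fb-Epn and Fb-Skn. That estimate lay between 0.14 and 0.29 under the alternatives, so its SE does not cover the choice of processing. The comparisons share libraries and are not independent of each other.

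**Figure D3:**
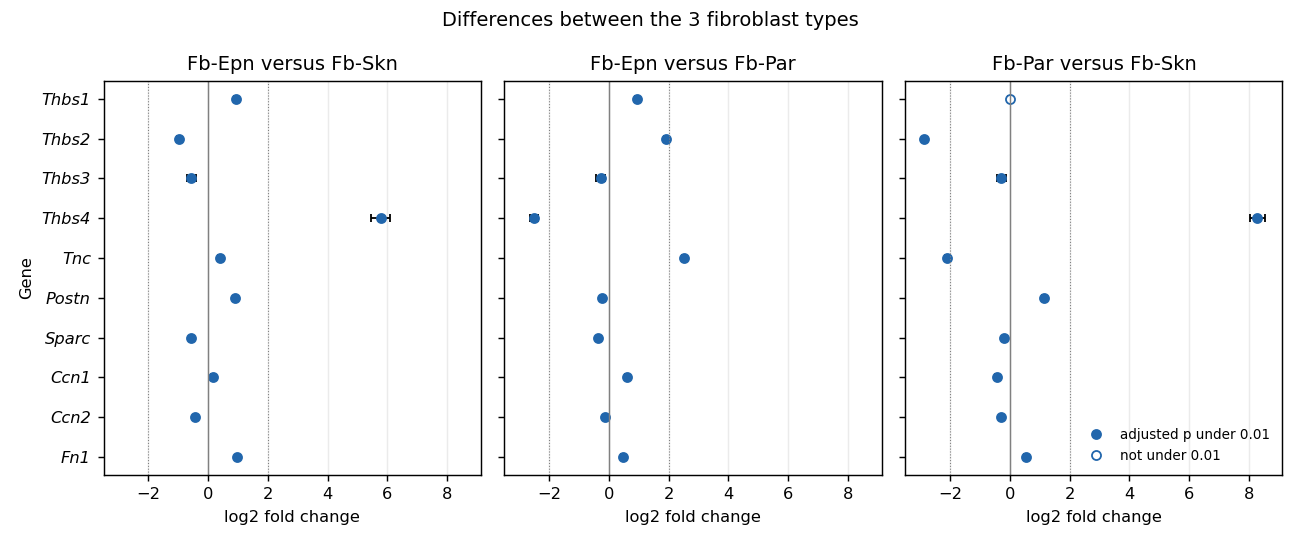
log2 fold change (edgeR, first type minus second) of the 10 genes in the 3 comparisons, with bars of 2 SE on each side, filled points for an adjusted p under 0.01 and dotted lines at a change of 2. *Thbs4* lies at 5.78, -2.51 and 8.29, and the only open point is *Thbs1* between Fb-Par and Fb-Skn at -0.0018. For *Thbs4* against Fb-Skn the bars are too narrow.

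The direction of calls over all genes depended on the scaling. Of the genes called between Fb-Epn and Fb-Skn 52.3% were higher in Fb-Epn, and of those called between Fb-Par and Fb-Skn 50.8% were higher in Fb-Par. With limma on log2(TPM + 1) these shares were 69.0% and 66.9%, and the median of all genes shifted by 0.13 and 0.14 on the log2 scale. With library size only they were 63.7% and 61.9%, and with limma on log2(FPKM + 1) 63.2% and 61.0%. Among the 10 genes only the uncalled contrast of *Thbs1* between Fb-Par and Fb-Skn changed sign under these scalings, where it was 0.15 in limma on log2(TPM + 1) beside the shift of 0.14.

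Over all genes tested, 43.9%, 38.8% and 45.6% were called in the 3 comparisons, which is the share to set beside each list below. The lists were not matched to all genes for level, and abundant genes can be called on small differences. Of 18 other matricellular genes tested, 13 were called between Fb-Epn and Fb-Skn (5 higher and 8 lower in Fb-Epn), 17 between Fb-Epn and Fb-Par (5 higher, 12 lower) and 16 between Fb-Par and Fb-Skn (8 higher, 8 lower). *Smoc1* and *Sparcl1*, which encode secreted relatives of SPARC, were highest in Fb-Par, as *Thbs4* was. *Smoc1* was at 42.5 ± 1.09 TPM in Fb-Epn, 569 ± 14.3 TPM in Fb-Par and 0.284 ± 0.307 TPM in Fb-Skn. *Sparcl1* was at 2.83 ± 0.242, 44.9 ± 1.29 and 0.573 ± 0.364 TPM in the same order. *Tnn*, which encodes tenascin-N (also called tenascin-W), was highest in Fb-Skn at 41.7 ± 1.62 TPM, against 4.09 ± 0.423 TPM in Fb-Epn and 0.229 ± 0.0548 TPM in Fb-Par, and its lowest level fell in Fb-Par as for *Tnc*. *Fbln1* (fibulin-1) was also low in Fb-Par, at 7.69 ± 0.488 TPM against 38.1 ± 2.40 TPM in Fb-Epn and 34.2 ± 1.24 TPM in Fb-Skn, while *Fbln5*, an elastic fibre protein gene, was higher in Fb-Skn (567 ± 7.74 TPM) than in Fb-Epn (95.5 ± 0.921 TPM). *Tgfbi*, a periostin relative, was higher in Fb-Epn (184 ± 5.96 TPM) than in Fb-Skn (23.2 ± 2.57 TPM). *Ecm1* was higher in Fb-Epn than Fb-Par (121 ± 8.76 against 70.7 ± 2.85 TPM). The CCN family is given for its kinship and not by the rule for named genes. *Ccn3* was at 578 ± 7.75 TPM in Fb-Epn, 1086 ± 17.1 TPM in Fb-Par and 113 ± 2.64 TPM in Fb-Skn, so that it had yet another order than *Ccn1* and *Ccn2*, and *Ccn5*, which lacks the heparin-binding tail of its relatives, was at 274 ± 13.3, 538 ± 14.1 and 499 ± 1.92 TPM.

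Among 25 receptors and cell-surface partners tested, 21 were called between Fb-Epn and Fb-Skn (11 higher in Fb-Epn), 20 between Fb-Epn and Fb-Par (11 higher in Fb-Epn) and 24 between Fb-Par and Fb-Skn (13 higher in Fb-Par). *Sdc4*, a syndecan that acts with integrins at fibronectin adhesions, was higher in Fb-Epn than Fb-Par (108 ± 5.31 against 38.8 ± 3.15 TPM, log2 fold change 1.49). *Sdc2* was the other way round (302 ± 8.75 against 774 ± 16.1 TPM, log2 fold change -1.35). *Itga9* and *Itga8*, the alpha chains of integrins that bind tenascin-C and other ligands, differed in opposite directions between Fb-Par and Fb-Skn. *Itga9* was at 11.98 ± 0.888 TPM in Fb-Par and 1.91 ± 0.317 TPM in Fb-Skn, and *Itga8* at 32.0 ± 0.611 and 153 ± 7.82 TPM. *Itgb8*, whose integrin activates latent TGF-beta, was at 10.3 ± 0.863 TPM in Fb-Par and 0.137 ± 0.0735 TPM in Fb-Skn, and *Itgb5* at 74.1 ± 3.16 and 187 ± 1.68 TPM. *Stab1*, a scavenger receptor for SPARC that is known from macrophages, was at 14.6 ± 1.21 TPM in Fb-Epn, 5.78 ± 0.121 TPM in Fb-Par and 1.90 ± 0.0768 TPM in Fb-Skn, the order of the macrophage marker sum. *Itga4* and *Itga6* were lower in Fb-Epn than Fb-Skn (3.13 ± 0.989 against 11.5 ± 1.497 TPM and 12.5 ± 0.784 against 27.2 ± 2.21 TPM). *Cd47*, a receptor of thrombospondin-1 named here for that role, was at 115, 86.8 and 118 TPM on average in the order Fb-Epn, Fb-Par, Fb-Skn.

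YAP/TAZ targets other than *Ccn1* and *Ccn2* numbered 19, and 16 were called in each comparison, with 6 higher and 10 lower in Fb-Epn against Fb-Skn, 5 higher and 11 lower in Fb-Epn against Fb-Par, and 7 higher and 9 lower in Fb-Par against Fb-Skn. They did not move 1 way. *F3*, which encodes tissue factor, was at 1909 ± 58.7 TPM in Fb-Epn, 376 ± 8.81 TPM in Fb-Par and 605 ± 4.76 TPM in Fb-Skn, the order of *Ccn1*. *Ankrd1*, a nuclear ankyrin repeat protein gene, was at 1.48 ± 0.452, 3.89 ± 0.335 and 13.4 ± 0.872 TPM, and *Nt5e*, which encodes CD73, at 124 ± 3.04, 317 ± 10.6 and 478 ± 18.4 TPM, the order of *Ccn2*. *Igfbp3*, an IGF-binding protein gene, was low in Fb-Par (85.1 ± 2.35 TPM) beside Fb-Epn (432 ± 5.55 TPM) and Fb-Skn (315 ± 6.79 TPM). *Nuak2* was higher in Fb-Epn than Fb-Skn (27.7 ± 0.794 against 8.44 ± 0.609 TPM), and *Fjx1* and *Dock5* were higher in Fb-Par than Fb-Skn (56.5 ± 1.03 against 19.5 ± 1.67 TPM and 28.5 ± 0.698 against 15.1 ± 1.84 TPM).

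Of 23 genes for TGF-beta ligands, their latency proteins and early targets, 16, 14 and 16 were called in the comparisons of Fb-Epn with Fb-Skn (9 higher), Fb-Epn with Fb-Par (8 higher) and Fb-Par with Fb-Skn (12 higher). *Lrrc32*, which encodes the surface anchor GARP for latent TGF-beta, was at 56.6 ± 0.199 TPM in Fb-Epn, 215 ± 2.01 TPM in Fb-Par and 9.18 ± 0.612 TPM in Fb-Skn. *Ltbp1*, which encodes the matrix anchor of latent TGF-beta, had the opposite order, with 35.1 ± 0.562, 13.1 ± 0.293 and 113 ± 4.85 TPM, as *Thbs2* had. *Tgfb3* was highest in Fb-Skn (961 ± 30.3 TPM, against 360 ± 6.60 TPM in Fb-Epn and 506 ± 3.18 TPM in Fb-Par). *Tgfb2* was higher in Fb-Par than Fb-Epn (254 ± 3.44 against 73.5 ± 3.03 TPM), and the co-receptor gene *Tgfbr3* was lower (21.3 ± 0.816 against 66.4 ± 2.27 TPM).

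In the list of 25 serum and immediate early response genes, 19 were called between Fb-Epn and Fb-Skn (9 higher, 10 lower), 23 between Fb-Epn and Fb-Par (11 higher, 12 lower) and 21 between Fb-Par and Fb-Skn (12 higher, 9 lower). Transcription factor genes and contractile genes were both among those with the largest changes. *Egr3* was at 17.6 ± 1.31 TPM in Fb-Epn, 3.01 ± 0.177 TPM in Fb-Par and 0.560 ± 0.109 TPM in Fb-Skn, and *Egr2* at 45.1 ± 1.53, 23.2 ± 0.512 and 4.00 ± 0.365 TPM, both in the order of *Fn1*. *Acta2*, the smooth muscle actin gene of myofibroblasts, was at 3357 ± 116, 5051 ± 82.3 and 10307 ± 221 TPM, the order of *Ccn2*. *Cnn1* was lower in Fb-Epn than Fb-Skn (219 ± 4.95 against 534 ± 9.08 TPM), and *Myl9* and *Actg2* were lower in Fb-Epn than Fb-Par (812 ± 19.3 against 1962 ± 89.0 TPM and 42.1 ± 2.72 against 113 ± 6.38 TPM). *Fosl1* was higher in Fb-Epn than Fb-Par (19.8 ± 1.18 against 5.56 ± 1.35 TPM), and between Fb-Par and Fb-Skn *Atf3* was higher (20.5 ± 1.21 against 3.60 ± 0.597 TPM) and *Fosb* lower (8.88 ± 1.10 against 23.5 ± 1.13 TPM).

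Proteases and matrix partners, many of which cut or bind the 10 proteins, were called for 23 of 25 genes between Fb-Epn and Fb-Skn (9 higher, 14 lower), 22 between Fb-Epn and Fb-Par (12 higher, 10 lower) and 22 between Fb-Par and Fb-Skn (9 higher, 13 lower). *Adamts5*, a proteoglycan-cleaving enzyme gene, was at 116 ± 3.87 TPM in Fb-Epn, 120 ± 5.02 TPM in Fb-Par and 7.09 ± 0.172 TPM in Fb-Skn. *Timp3*, which encodes a matrix-bound inhibitor of such enzymes, was lowest in Fb-Epn, at 33.1 ± 2.01 TPM against 549 ± 13.1 and 306 ± 17.2 TPM in Fb-Par and Fb-Skn, whereas *Timp1* was higher in Fb-Epn (1982 ± 25.9 TPM) than in Fb-Skn (412 ± 9.63 TPM). *Mmp3* was near 0 in Fb-Epn and Fb-Par (0.9896 ± 0.771 and 0.187 ± 0.115 TPM) and at 18.4 ± 2.08 TPM in Fb-Skn. *Eln*, the elastin gene, and *Cthrc1* were lower in Fb-Par than Fb-Epn (27.0 ± 1.18 against 84.2 ± 1.99 TPM and 9.24 ± 1.55 against 49.9 ± 2.95 TPM), as *Tnc* was, and *Eln* was at 88.2 ± 4.91 TPM in Fb-Skn. *Adamts10* was higher in Fb-Par than Fb-Epn (129.7 ± 2.59 against 49.98 ± 3.14 TPM), and *Fbn1*, which encodes fibrillin-1, was higher in Fb-Par than Fb-Skn (1286 ± 27.7 against 444 ± 26.4 TPM). The median log2 fold change of the 6 lists lay between -0.20 and 0.12 for Fb-Epn minus Fb-Skn, between -0.79 and 0.09 for Fb-Epn minus Fb-Par and between -0.28 and 0.23 for Fb-Par minus Fb-Skn, beside -0.0028, -0.00018 and -0.012 over all genes tested.

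**Figure D4:**
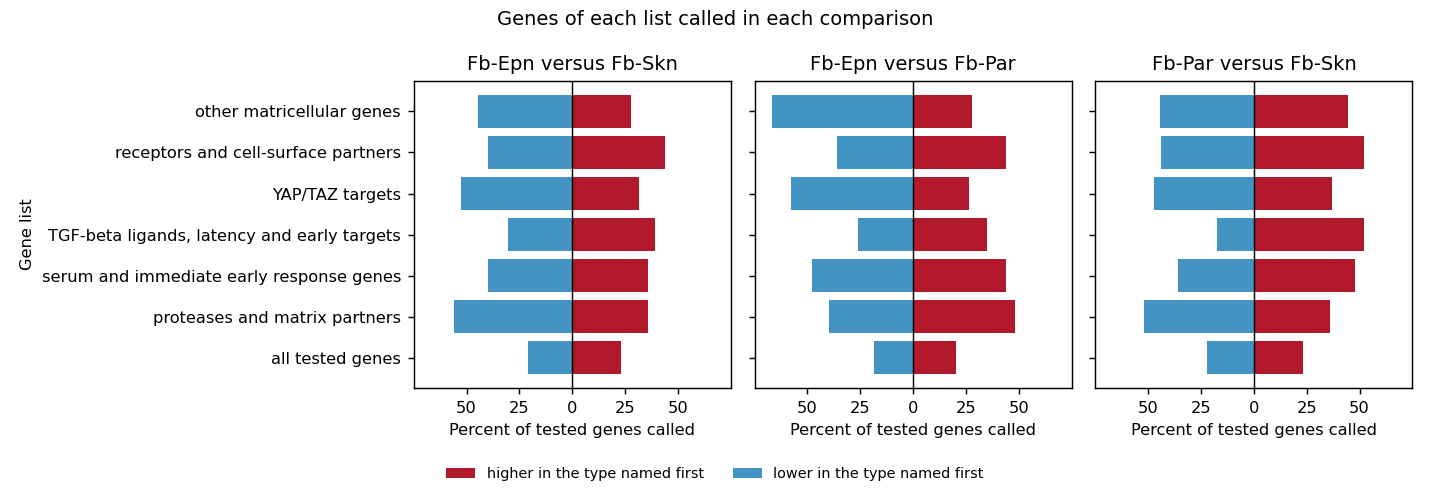
Percent of the tested genes of each list called higher (right, red) or lower (left, blue) in the type named first, in the 3 comparisons, with all 13273 tested genes in the bottom bar. Every list has a larger called share than all genes tested (43.9%, 38.8% and 45.6%), but the lists were not matched to all genes for level. An abundant gene can be called on a small difference, as *Col5a1* was at 0.09 between Fb-Epn and Fb-Par. Among other matricellular genes 12 of 18 lie on the lower side of Fb-Epn versus Fb-Par.

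For the 4 genes that passed a log2 fold change of 1, the pattern was compared with 9577 other genes by Pearson's r, taken on log2(CPM + 1) over the 9 libraries, which fall into 3 types, so that r mostly follows 3 type means. *Cpxm2* (r = 0.9998), *Dram1* (0.9995) and *Sertad4* (0.9991) were most like *Thbs2*. *Cygb* (0.9989), *Meox2* (0.9979) and *Mmp15* (0.9978) were most like *Thbs4*, and *Cygb* (cytoglobin) was at 53.6, 290 and 0.798 TPM on average in the order Fb-Epn, Fb-Par, Fb-Skn. *Igfbp3* (0.9989) and *Ccl20* (0.9989) were most like *Tnc*, and *Ccl20*, a chemokine gene, was at 77.0, 0.0849 and 43.8 TPM. The genes most like *Postn* were *Erbb3* (0.9998), *Sox10* (0.9997) and *Ngfr* (0.9996), all of which are on the Schwann cell marker list, and *Sox10* was at 14.5, 30.9 and 0 TPM. *Postn* itself was at 1694, 1994 and 821 TPM in the same order, and r compares patterns and not levels. Such likeness was common, since 61, 63, 33 and 76 genes had an r above 0.99 to *Thbs2*, *Thbs4*, *Tnc* and *Postn*.

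By the Gene Ontology terms in the deposited tables, 9 of the 10 genes carried extracellular matrix (1.65% of tested genes with a component term did), with *Thbs3* as the exception. The genes were chosen as matricellular genes, so high shares of matrix and adhesion terms follow from that choice and are not a result. Cell adhesion was listed for 8 (1.85%), all but *Thbs1* and *Sparc*, and heparin binding for 8 (1.08%), all but *Tnc* and *Sparc*. Integrin binding was listed for *Thbs1*, *Thbs4*, *Ccn1*, *Ccn2* and *Fn1* (1.2%), and calcium ion binding for *Sparc* and the 4 thrombospondins (3.83%). Negative regulation of angiogenesis was listed for *Thbs1*, *Thbs2*, *Thbs4* and *Sparc* (0.639%). In these 4 the type with the highest level was Fb-Epn, Fb-Skn, Fb-Par and Fb-Skn, so genes with this shared term peaked in different types.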

How the data were processed

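Paired-end reads of 150 bp came from poly(A) directional libraries. Per the labels, the authors used FastQC 0.11.7, Trimmomatic 0.38, HISAT2 2.1.0 and featureCounts 1.6.3 with rn6, and the annotation release and use of strand are not given in the sources used here. Tables of raw counts, of TPM and of FPKM were deposited by the authors, each with 32883 genes. The deposited TPM equal the count over 1 length per gene, scaled to a fixed sum, and the deposited FPKM are not a rescaling of the counts.

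Counts were fitted with edgeR 4.0.16 in R 4.3.3 (TMM, default expression filter, quasi-likelihood F test) in a single model of the 9 libraries, and p-values were adjusted by Benjamini-Hochberg over 13273 genes. Only the edgeR fit was tested on simulated counts, which had the same dispersion for every gene. No 2 libraries of a type were alike within sampling noise (chi-square per degree of freedom 3.18 to 5.45). DESeq2 1.42.0 and limma 3.58.1 on log2 TPM, with pseudocounts of 1 and 0.1, were alternatives, with other scalings, filters and left-out libraries. The named genes were the 10 members, the 2 called genes with the largest change in each direction, list and comparison (mean TPM of at least 10 in 1 type), and the 3 genes most like each member that passed a log2 fold change of 1. Some genes that these rules and lists name are not reported here. Members and lists were chosen with earlier results of these data known. Promoters came from RefSeq (GRCr8). The cell culture, imaging and animal experiments were not used here.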

Additional observations from a re-analysis of the deposited data

How the results depend on the processing

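Members called stayed at 9 or 10 of 10 (Fb-Epn versus Fb-Skn and Fb-Epn versus Fb-Par) and 7 to 9 (Fb-Par versus Fb-Skn) under every scaling, test, filter and choice of libraries tried, with 10, 9 to 10 and 8 to 9 when each library was left out in turn. Of all genes tested, 43.9%, 38.8% and 45.6% were called in the main fit. A required log2 fold change above 1 left 1, 3 and 4 of the 10 genes, where 16.5%, 14.5% and 16.8% of all genes tested passed. Above 2 it left 1, 2 and 3, where 8.44%, 6.48% and 8.54% passed. Of 597 member values under the alternatives, 563 kept direction and side of the threshold, 20 lost the call (*Thbs3* and *Sparc*) and 14 changed sign, all of *Thbs1* between Fb-Par and Fb-Skn. That estimate (-0.0018) was 0.016 with RLE size factors or DESeq2, 0.021 with the filter of 10 counts, 0.022 with only the 6 libraries compared, 0.093 with library size only, 0.15 in limma on log2(TPM + 1) and log2(TPM + 0.1), 0.084 in limma on log2(FPKM + 1), an alternative chosen after seeing the data, and -0.045 to 0.034 with a library left out. All 360 counts of called list genes stayed within 1.5 times of the reported ones. The *Thbs4* estimates of 5.78 and 8.29 against Fb-Skn were 4.28 and 6.76 in limma on log2(TPM + 1), 3.49 and 5.92 in limma on log2(FPKM + 1), and 6.44 and 8.95 without Fb-Skn replicate 2, while the filter of 10 counts removed *Thbs4*. Libraries with the same number deviated together with r of -0.08 to 0.02, so the numbers were not taken as pairs, and with a replicate block 10, 10 and 9 members were called and 5580, 4859 and 5799 genes in all, against 5830, 5145 and 6052. Among the 10 genes, depth was limiting for *Thbs4* in Fb-Skn, with 4 to 12 counts per library.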
